A study of Mus musculus with 18 samples.

Results

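The genes described here encode 3 cytokines of the interleukin-6 family (Il6, Il11 and Lif), their receptor chains (Il6ra, Il11ra1, Osmr, Lifr and the shared chain Il6st), the transcription factor Stat3 and its feedback inhibitor Socs3. They were chosen by name, as 10 of the 27179 genes in the table of normalized counts, and each had a row. RNA was sequenced from 18 cultures of mesenchymal stem cells (MSCs), the plastic-adherent stroma of the bone marrow. There were 6 young, 6 old and 6 rejuvenated old libraries. All cells were primary cells of C57BL6 mice, with donors of 6 weeks for young and of 18 to 24 months for old MSCs, and were sampled on day 7 of culture. Rejuvenated old MSCs were old MSCs kept for 7 days in one well with young MSCs, from which a membrane with pores of 0.4 µm parted them, at 100000 old cells per well. No culture of old MSCs beside other old MSCs was used here, so that the age of the neighbouring cells and the mere company of more cells cannot be told apart. The labels number the cultures of a group as biological replicates without saying whether each came from its own mouse, and the p-values measure the spread between these cultures.

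The cytokines of this family bind a private receptor chain or pair of chains and signal through gp130, the protein of Il6st, which nearly all cells carry. Interleukin-6 and interleukin-11 recruit gp130 through Il6ra and Il11ra1, leukaemia inhibitory factor pairs gp130 with Lifr, and oncostatin M pairs it with Osmr or, in part, with Lifr. Janus kinases bound to these chains phosphorylate STAT3, which enters the nucleus and induces, among other genes, Socs3, whose protein binds gp130 and shuts the kinases off. In bone marrow the family is known for acting on stromal cells, osteoblasts and osteoclasts.

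At least 1 read was found for 21697 genes, with 22936251 to 29559194 reads on genes per library, and limma was run on the 14353 genes that averaged 10 normalized counts or more. All 10 genes passed this limit. Some libraries went against their labels or stood apart. The methods of the study name male mice, but the Y-linked genes Uty, Ddx3y, Kdm5d and Eif2s3y reached at most 2.06 normalized counts in the young libraries and at least 493 in all others, while Xist, the RNA that silences one X chromosome, lay at 21.2 to 41.2 in young and at most 14.4 in other MSCs. Xist was thus low throughout, with 197 reads in all over the young libraries, and the sex of the donors was not tested. Thy1, a surface marker of MSCs, lay at 175 to 227 in young and at most 3.23 in old MSCs, and at 21.6 in rejuvenated old replicate 1 against at most 0.951 in the other 5 of that group. The 14 macrophage markers summed to 961 to 1078 in young, 13831 to 17176 in old and 13728 to 16757 in rejuvenated old MSCs, with 5 of the 14 at 3 reads or fewer in every young library and both Ptprc (CD45) and Adgre1 (F4/80) at 0 in all of these. Outside young MSCs this sum is mostly Lyz2 (means of 173 in young and 10154 in old MSCs). Of 13 tested macrophage markers 12 were lower in young than in old MSCs (44.1% of all genes were). Only Aif1 was higher in young MSCs (means of 23.1 and 15.0). The 8 osteoblast markers summed to 4525 to 4776 in young, 114701 to 123428 in old and 66474 to 94401 in rejuvenated old MSCs, and the 7 adipocyte markers to 16838 to 19370, 43193 to 45589 and 47587 to 60629. The osteoblast sum is mostly Spp1 (osteopontin), at a mean of 112981 in old MSCs. The 12 MSC markers reached 322363 to 348916, 444860 to 471001 and 435493 to 467784 in the same order. Of these, 5 were higher and 7 lower in young than in old MSCs, beside 41.6% and 44.1% of all genes. Among them were Pdgfra (means of 14051 and 4075), Eng (163 and 7340) and Cxcl12 (9227 and 197374), which carries the lower young sum. Lymphocyte markers summed to at most 18.3 and endothelial markers to at most 212 in any library, and osteoclast markers to 376 to 444 in young and 3701 to 4732 in the other MSCs. The osteoclast sum outside young MSCs is mostly Ctsk (means of 130 in young and 4428 in old MSCs), while the other 2 tested markers, Mmp9 and Oscar, were higher in young than in old MSCs (means of 244 against 30.9 and 25.8 against 15.2). The part of what underlies the missing Y-linked transcripts, of these other cell types and of replicate 1 in the differences between groups was not tested. In bulk RNA fewer cells of a type cannot be told apart from less RNA per cell.

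Genes in which the letters bound by STATs or by AP-1 stood before the start are shown first, because they include the 3 cytokines and the STAT3 target Socs3. These are the 250 bases before each RefSeq start in GRCm38.p6 (mm10), read 5′ to 3′ on the strand of the gene, with the match in capitals.
Il6, chr5:30012864-30013113, plus strand: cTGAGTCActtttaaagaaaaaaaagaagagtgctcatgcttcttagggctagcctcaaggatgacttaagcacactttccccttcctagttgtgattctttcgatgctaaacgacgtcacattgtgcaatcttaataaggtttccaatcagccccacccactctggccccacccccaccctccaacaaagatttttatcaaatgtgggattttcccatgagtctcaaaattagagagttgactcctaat
Il11, first start, chr7:4782858-4783107, minus strand: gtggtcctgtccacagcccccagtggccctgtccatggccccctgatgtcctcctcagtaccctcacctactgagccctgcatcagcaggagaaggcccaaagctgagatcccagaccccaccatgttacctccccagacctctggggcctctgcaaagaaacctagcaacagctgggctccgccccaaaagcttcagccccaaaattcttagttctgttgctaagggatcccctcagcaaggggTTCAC
Il11, second start, chr7:4778142-4778391, minus strand: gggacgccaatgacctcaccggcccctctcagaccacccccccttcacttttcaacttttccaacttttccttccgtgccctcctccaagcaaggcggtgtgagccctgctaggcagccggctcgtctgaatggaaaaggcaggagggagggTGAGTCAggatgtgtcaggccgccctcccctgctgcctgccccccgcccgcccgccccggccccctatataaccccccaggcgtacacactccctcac
Lif, chr11:4257318-4257567, plus strand: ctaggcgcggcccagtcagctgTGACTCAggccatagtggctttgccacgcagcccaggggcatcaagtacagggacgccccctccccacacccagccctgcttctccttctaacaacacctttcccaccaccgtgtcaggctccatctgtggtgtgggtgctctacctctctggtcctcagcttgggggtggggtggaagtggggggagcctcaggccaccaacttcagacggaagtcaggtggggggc
Socs3, chr11:117969367-117969616, minus strand: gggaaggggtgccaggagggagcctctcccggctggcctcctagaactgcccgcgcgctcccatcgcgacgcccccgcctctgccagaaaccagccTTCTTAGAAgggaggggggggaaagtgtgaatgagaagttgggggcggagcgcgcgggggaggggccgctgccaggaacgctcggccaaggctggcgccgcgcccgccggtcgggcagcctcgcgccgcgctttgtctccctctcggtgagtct
The letters searched, on both strands, were TTCNNNGAA for STATs, the same with 4 bases between TTC and GAA, and TGANTCA for AP-1, in windows of 250 bases before to 50 after a start. Of 32817 such windows, 8.29%, 6.94% and 7.81% held them. Il6 had TGAGTCA with its first base 249 bases before the start, Lif had TGACTCA 228 bases before it, and the second start of Il11 had TGAGTCA 98 bases before it. Socs3 had TTCTTAGAA 154 bases before its start, and at the first start of Il11 the match TTCACAAGAA began 5 bases before the start and ran past the stretch shown. Osmr held TGATTCA just after its start, and the windows of Lifr, Il6ra, Il11ra1, Il6st and Stat3 held none of these letters. For Socs3, Osmr and Lifr the starts used lie inside the annotated span of the gene, whose outermost beginning was not searched. A match describes the sequence and is no measurement of binding.

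Between young and old MSCs 9 of the 10 genes differed at an adjusted p under 0.05, against 85.7% of all genes tested. Of these, 5 were higher in young MSCs (background 41.6%) and 4 were lower (background 44.1%), and in 9 genes the 6 young and 6 old libraries did not overlap (background 73.9%). Between rejuvenated old and old MSCs 8 of the 10 differed, against 41.6% of all genes. Here 4 were higher in rejuvenated old MSCs (background 21.0%) and 4 lower (background 20.6%), and 3 did not overlap (background 22.0%). All 10 differed between young and rejuvenated old MSCs (background 85.6%), with 5 higher in young (background 41.5%), 5 lower (background 44.1%) and 9 without overlap (background 70.5%). The median size of the difference over the 10 genes was 0.63 on the log2 scale between young and old MSCs, beside 0.60 over all genes, and 0.22 between rejuvenated old and old MSCs, beside 0.15. The shares of young against old MSCs are thus near the background, and the values of each gene follow by role.

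**Figure D1:**
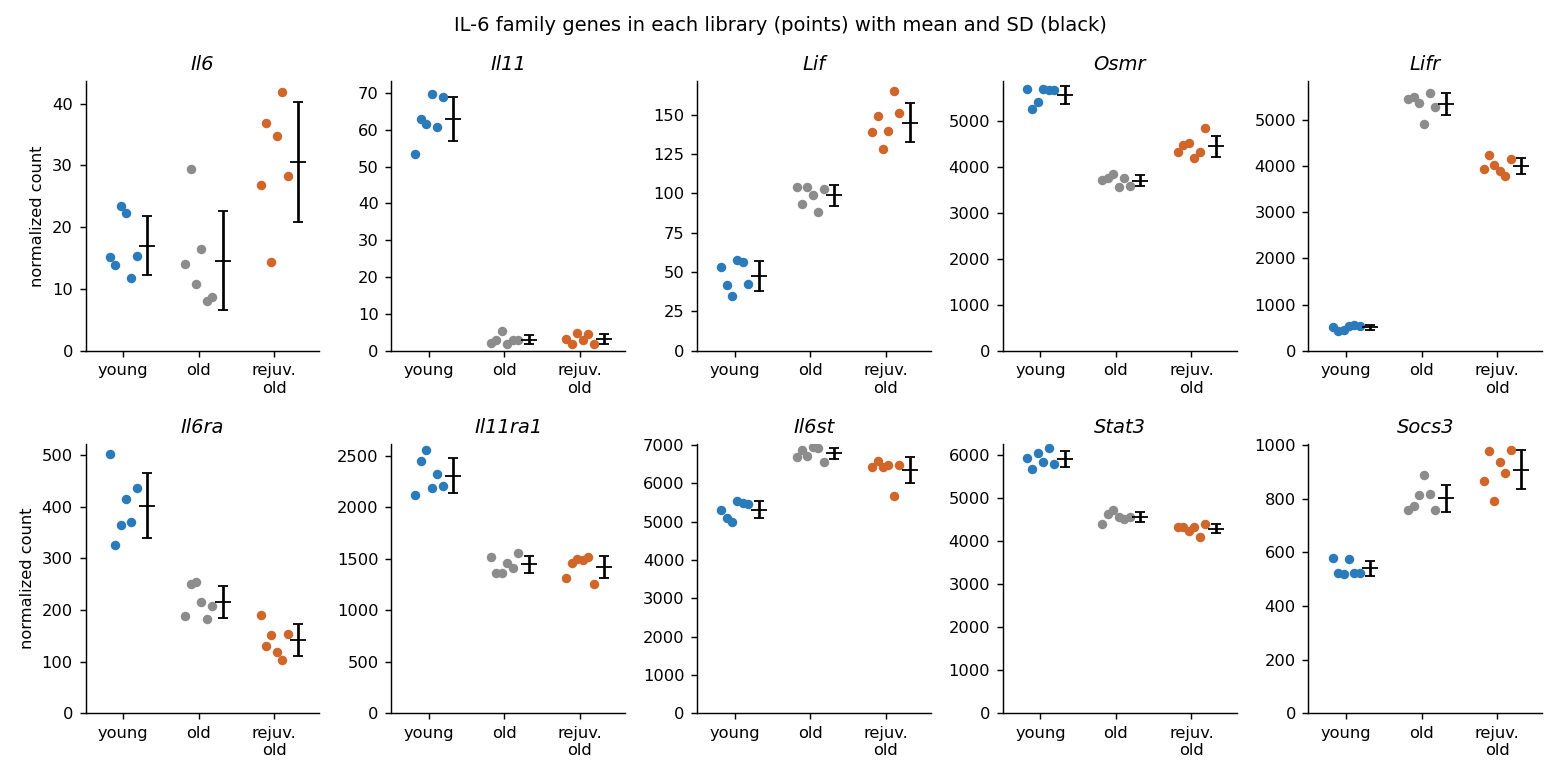
Normalized counts (vertical axes, each from 0) of the 10 genes in the 6 young, 6 old and 6 rejuvenated old libraries (points), with the mean and SD of each group in black. Il11 stands at 53.3 to 69.8 in young MSCs and at no more than 5.39 elsewhere, and Lifr at 430 to 547 in young MSCs and at 3778 to 5582 elsewhere.

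Among the cytokines, Il11 was read mainly in young MSCs, Lif was lowest in young and highest in rejuvenated old MSCs, and Il6 was higher in rejuvenated old MSCs than in both other groups. Il6 (Entrez gene 16193, chr5:30013114-30019975, plus strand), an inflammatory cytokine that stromal cells supply to blood cell precursors, was found at 11.7 to 23.5 normalized counts in young MSCs (median 15.3), at 8.03 to 29.5 in old MSCs (median 12.4) and at 14.3 to 41.9 in rejuvenated old MSCs (median 31.5). The mean was 17.0 ± 4.74 in young and 30.5 ± 9.70 in rejuvenated old MSCs (SD, n = 6), and 14.6 in old MSCs. All 3 groups overlapped, since old replicate 2 reached 29.5 and rejuvenated old replicate 3 only 14.3. Rejuvenated old MSCs had more Il6 than old MSCs by 1.08 on the log2 scale (SE 0.29, adjusted p = 0.00415, limma). The summed reads, 191 against 88, gave a ratio of 2.09 (95% exact interval 1.61 to 2.72, counting error only). Young MSCs had less than rejuvenated old MSCs (log2 fold change -0.77, adjusted p = 0.0157). Against old MSCs the difference of 0.30 was not called (95% interval -0.29 to 0.90, adjusted p = 0.320). Both values from young MSCs changed sides of the threshold under quantile normalization, to 0.84 against old (adjusted p = 0.0154) and -0.41 against rejuvenated old MSCs (adjusted p = 0.216). Il6 lies within the noncoding gene A230098N10Rik, which had at most 1.07 normalized counts in any library, and the strand setting of the counting is not given in the sources used here. Annotated genes also overlap Il11 (Tmem190, 3.09 to 9.79 in young MSCs), Il6ra, Il11ra1 and Stat3, so reads they share may be counted to either.

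Il11 (16156, chr7:4772373-4782907, minus strand), a cytokine that acts on osteoclast and fibroblast biology, was found at 53.3 to 69.8 normalized counts in young MSCs (median 62.1). In old MSCs it lay at 1.82 to 5.39 (median 2.92), and in rejuvenated old MSCs at 1.89 to 4.76 (median 2.99). Every young library was thus above every other library. The log2 fold change was 4.03 against old (SE 0.24, adjusted p = 2.41e-13) and 3.98 against rejuvenated old MSCs (adjusted p = 3.19e-13). On the summed reads, 360 for young, 18 for old and 20 for rejuvenated old MSCs, the ratio of young to old was 21.0 (95% exact interval 13.1 to 35.9) and that of young to rejuvenated old 19.7 (12.6 to 32.6). Rejuvenated old and old MSCs differed by 0.05 (95% interval -0.44 to 0.55, adjusted p = 0.885), with a ratio of reads of 1.07 (0.537 to 2.14). Genes of chromosome 7 had a median of 0.61 in young against old MSCs, and Il11 lay 3.42 above that median. Such a shift of a whole chromosome was seen beside several members, and its part in their differences was not tested.

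Lif (16878, chr11:4257568-4272514, plus strand), the cytokine that holds mouse embryonic stem cells in their naive state, lay at 34.6 to 57.7 normalized counts in young MSCs (median 47.8). The old libraries ran from 88.3 to 104 (median 101) and the rejuvenated old libraries from 128 to 165 (median 145). No 2 of the groups overlapped, and rejuvenated old MSCs lay further from young MSCs than old MSCs did. It was lower in young than in old MSCs by a log2 fold change of -1.06 (SE 0.12, adjusted p = 1.28e-08) and higher in rejuvenated old than in old MSCs by 0.55 (SE 0.12, adjusted p = 0.000529). Young and rejuvenated old MSCs were 3.05-fold apart (-1.61, adjusted p = 8.12e-12). Osm, the gene of oncostatin M and the neighbour of Lif on chromosome 11 at a distance of 16541 bases, had 0 reads in every young library. It lay at 2.89 to 18.1 normalized counts in old and at 1.89 to 13.5 in rejuvenated old MSCs, or 46 and 44 reads in all, too few to be tested. For 1 library taken alone a count of 0 allows up to 3 reads, and here every young library had 0. Macrophages are a known source of oncostatin M, and their summed markers, given above, were likewise lowest in young MSCs, a part that was not tested.

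The private receptor chains changed in opposite directions. Il6ra (16194, chr3:89869324-89913196, minus strand), the chain that binds interleukin-6, lay at 326 to 502 normalized counts in young MSCs (median 392), at 182 to 255 in old (median 211) and at 104 to 191 in rejuvenated old MSCs (median 142). Young MSCs stood above all other libraries, and rejuvenated old overlapped old MSCs only through rejuvenated old replicate 1 at 191, the library that stood apart in Thy1. Young MSCs exceeded old MSCs by 0.89 (SE 0.13, adjusted p = 9.79e-07), while rejuvenated old MSCs fell below old MSCs with a log2 fold change of -0.62 (SE 0.13, adjusted p = 0.000439). Without any one library the latter stayed between -0.71 and -0.54. The distance of young from rejuvenated old MSCs was 1.51 (adjusted p = 1.58e-10), so that Il6 and its own receptor chain differed in opposite directions between rejuvenated old MSCs and each of the other groups.

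For Il11ra1 (16157, chr4:41760443-41769473, plus strand), the chain that binds interleukin-11, the young libraries held 2116 to 2550 normalized counts (median 2262), the old 1362 to 1551 (median 1435) and the rejuvenated old 1256 to 1520 (median 1473). Young MSCs were separate from both other groups, which overlapped throughout. The difference was 0.67 against old (SE 0.05, adjusted p = 4.78e-11) and 0.70 against rejuvenated old MSCs (adjusted p = 2.53e-11). Rejuvenated old and old MSCs differed by -0.03 (95% interval -0.14 to 0.09, adjusted p = 0.744). Like Il11 itself, its chain was thus higher in young MSCs and without a called change in co-culture. Il11ra1 has a near-identical copy, Il11ra2, to which 24.1 normalized counts were assigned in rejuvenated old replicate 4 and at most 1.08 elsewhere, so the counts of Il11ra1 are uncertain to the extent that reads fit both.

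Osmr (18414, chr15:6813568-6874968, minus strand), a receptor chain of oncostatin M, was found at 5255 to 5705 normalized counts in young MSCs (median 5678). It lay at 3561 to 3848 in old (median 3732) and at 4202 to 4837 in rejuvenated old MSCs (median 4398). The 3 groups were separate, with rejuvenated old MSCs between the others. Osmr was higher by 0.59 in young (SE 0.03, adjusted p = 1.1e-13) and by 0.26 in rejuvenated old MSCs (SE 0.03, adjusted p = 1.57e-06), both against old MSCs. Young MSCs kept 0.33 over rejuvenated old MSCs (adjusted p = 4.97e-09). The median of chromosome 15 was 0.20 and 0.21 in the comparisons with young MSCs, which leaves 0.39 and 0.11 above it.

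Lifr (16880, chr15:7090610-7197489, plus strand), the chain that binds leukaemia inhibitory factor, lies 215641 bases from Osmr on the same chromosome and moved the other way. Its levels were 430 to 547 normalized counts in young (median 526), 4906 to 5582 in old (median 5409) and 3778 to 4239 in rejuvenated old MSCs (median 3985). No library of one group reached another group, and of the 10 genes Lifr had the lowest adjusted p between young and old MSCs. Young MSCs had 10.6-fold less than old MSCs (log2 fold change -3.41, SE 0.05, adjusted p = 2e-24) and 7.94-fold less than rejuvenated old MSCs (-2.99, adjusted p = 2.17e-23). Rejuvenated old MSCs had 1.34-fold less than old MSCs (-0.42, SE 0.05, adjusted p = 1.11e-06).

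Il6st (16195, chr13:112464070-112506860, plus strand), the shared chain gp130, differed least of the receptor chains between young and old MSCs, with 5002 to 5530 normalized counts in young (median 5376), 6564 to 6933 in old (median 6792) and 5661 to 6576 in rejuvenated old MSCs (median 6442). Young MSCs were below both other groups without overlap. The log2 fold change was -0.35 against old (SE 0.04, adjusted p = 2.72e-09) and -0.25 against rejuvenated old MSCs (adjusted p = 5.71e-07). Chromosome 13 had a median of -0.30 in both comparisons, from which Il6st differed by -0.05 and 0.05. Rejuvenated old MSCs were lower than old MSCs by -0.10 (SE 0.04, adjusted p = 0.0275). This call was lost without old replicate 2, 4 or 5 (adjusted p = 0.0503, 0.0563 and 0.0550) and without rejuvenated old replicate 5, which was lowest at 5661 (-0.07, adjusted p = 0.0710).

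**Figure D2:**
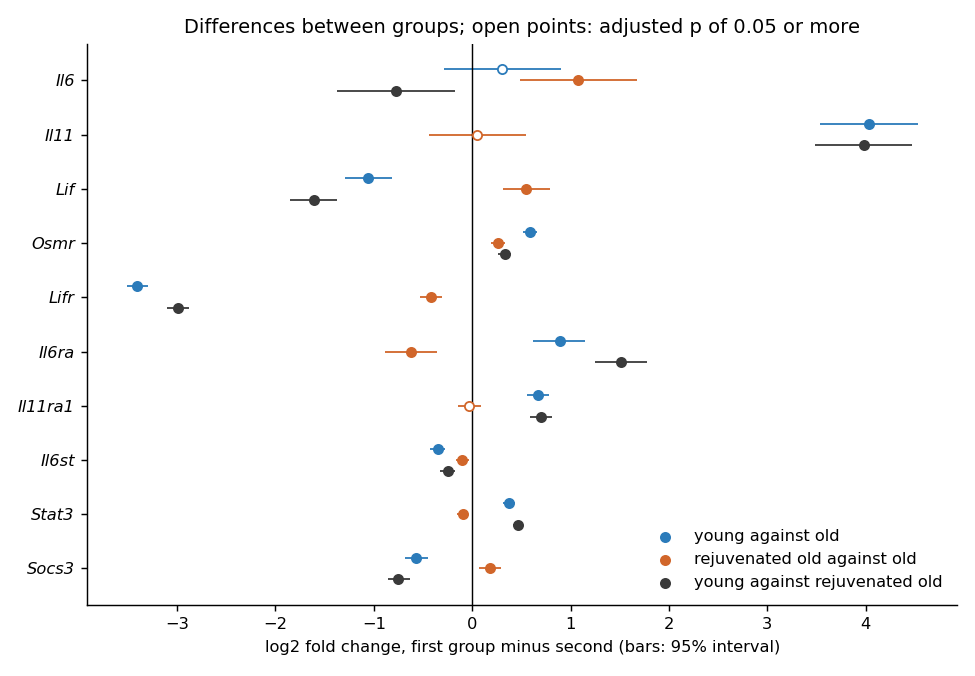
Log2 fold changes of the 10 genes with 95% intervals in 3 comparisons, the first-named group minus the second, with open points where the adjusted p was 0.05 or more. Il11 (4.03) and Lifr (-3.41) lie farthest from 0 in young against old MSCs, and in rejuvenated old against old MSCs only Il6 (1.08) exceeds 1.

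The ratio of 2 transcripts in one library does not depend on how libraries were scaled, and is given as a description without a test. There were 10.4 to 12.2 reads of Osmr for each read of Lifr in young MSCs, 0.672 to 0.726 in old MSCs and 1.05 to 1.17 in rejuvenated old MSCs. As log2 ratios these were 3.47 ± 0.10, -0.53 ± 0.05 and 0.15 ± 0.05 (SD, n = 6). In reads, Osmr thus outnumbered Lifr in young MSCs, Lifr outnumbered Osmr in old MSCs, and in rejuvenated old MSCs both were near parity. The lengths of the transcripts were not taken into account in these ratios. Il6ra amounted to 0.0640 to 0.0946 reads per read of Il6st in young, 0.0263 to 0.0380 in old and 0.0183 to 0.0297 in rejuvenated old MSCs. For Il11ra1 the same ratio was 0.395 to 0.510 in young MSCs and overlapped between old (0.198 to 0.236) and rejuvenated old MSCs (0.194 to 0.268).

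**Figure D3:**
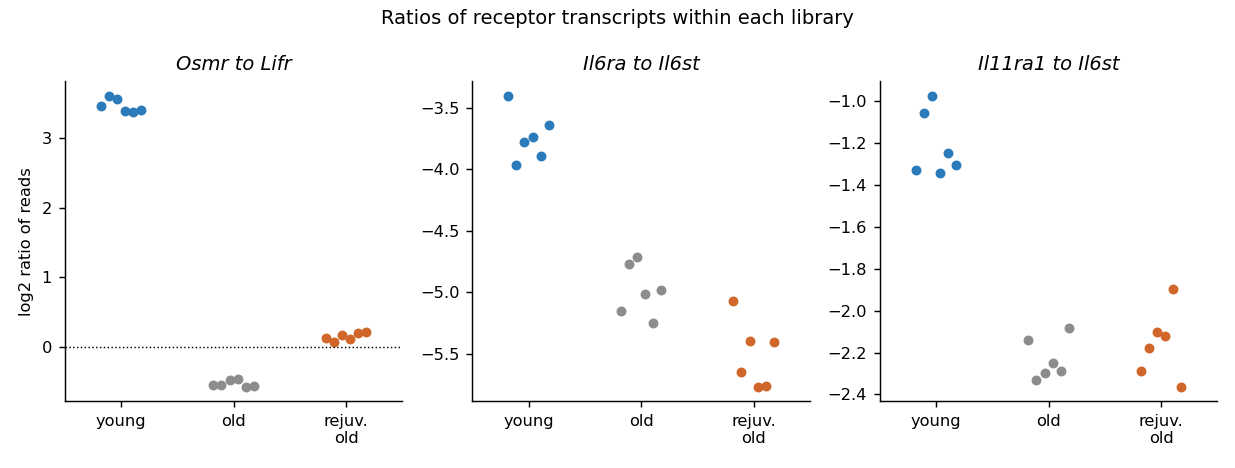
Log2 ratio of reads (vertical axes, which differ) of Osmr to Lifr, Il6ra to Il6st and Il11ra1 to Il6st in each library, by group. The ratio of Osmr to Lifr lies at 3.38 or more in young MSCs, between -0.57 and -0.46 in old and between 0.08 and 0.22 in rejuvenated old MSCs, where the dotted line marks equal reads.

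Stat3 (20848, chr11:100886806-100939594, minus strand), the transcription factor on which these receptors converge, was higher in young MSCs, while Socs3, the inhibitor that it induces, was lower. Stat3 lay at 5665 to 6155 normalized counts in young (median 5875), at 4396 to 4727 in old (median 4556) and at 4101 to 4400 in rejuvenated old MSCs (median 4321). Young MSCs were separate, and the highest rejuvenated old library just passed the lowest old one. The log2 fold change was 0.37 for young (SE 0.03, adjusted p = 1.06e-11) and -0.09 for rejuvenated old against old MSCs (SE 0.03, adjusted p = 0.00930), and 0.46 for young against rejuvenated old MSCs (adjusted p = 1.89e-13).

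Socs3 (12702, chr11:117966079-117970336, minus strand) had 521 to 579 normalized counts in young (median 524), 758 to 890 in old (median 793) and 793 to 982 in rejuvenated old MSCs (median 916). Here too only old and rejuvenated old MSCs overlapped. Young MSCs were lower than old MSCs (-0.57, SE 0.05, adjusted p = 1.33e-09) and rejuvenated old MSCs higher (0.18, SE 0.05, adjusted p = 0.0108). Young against rejuvenated old MSCs gave -0.75 (adjusted p = 1.03e-11). The protein and the phosphorylation of STAT3 were not measured by these libraries.

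Between genes, levels are compared per length, as RPKM (reads on a gene divided by the length of its merged exons in kilobases and by the depth of the library). The order of genes depends on these lengths, which merge all GENCODE exons of a gene. The annotation on which the reads were counted is not given in the sources used here. Young MSCs had most of Stat3 (24.3 ± 0.707, SD, n = 6), followed by Il11ra1 (20.2 ± 1.41), Il6st (18.8 ± 0.832) and Osmr (17.0 to 18.5), and the ranges of the last 3 overlapped from one to the next. Socs3 stood at 7.34, while Lifr (1.84) and Il6ra (1.83) could not be ordered, and the cytokines followed with Il11 at 1.19, Lif at 0.430 and Il6 at 0.275, of which the last pair overlapped. In old MSCs the order was Il6st (22.8), Lifr (18.5), Stat3 (17.9), Il11ra1 (11.3 to 13.1), Osmr (11.4) and Socs3 (10.3), in which Lifr overlapped Stat3 and Il11ra1, Osmr and Socs3 overlapped each with the next. Il6ra at 0.933 and Lif at 0.846 overlapped as well, and Il6 (0.223) and Il11 (0.0543) were lowest. Rejuvenated old MSCs had Il6st at 21.0, Stat3 at 16.6, Lifr at 13.7, Osmr at 13.5, Il11ra1 at 11.7 and Socs3 at 11.6, with Lifr and Osmr overlapping and Socs3 overlapping Il11ra1 and Osmr. Below these lay Lif (1.23), Il6ra (0.605), Il6 (0.462) and Il11 (0.0566), with overlap between Il6ra and Il6. Of the 3 cytokines the first in order was thus Il11 in young MSCs and Lif in both other groups, while Clcf1, another ligand of the family, stood above both at 9.35 in young and 6.02 in old MSCs, and the receptor chain that changed its place most was Lifr.

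**Figure D4:**
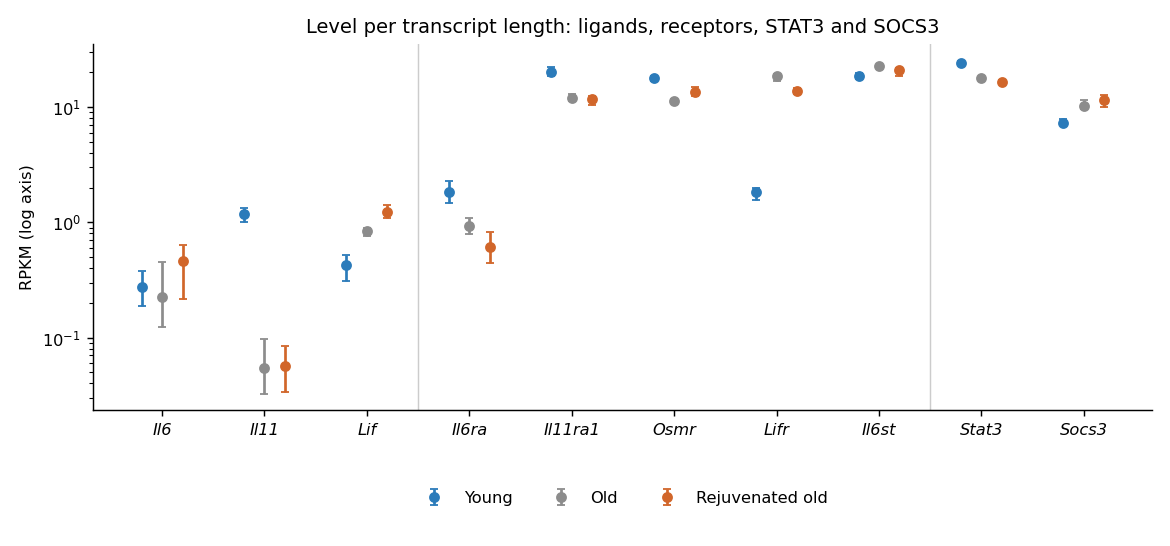
Mean level per transcript length (RPKM, log axis) of cytokines, receptor chains, Stat3 and Socs3 in young, old and rejuvenated old MSCs, with bars from the lowest to the highest of 6 libraries. The cytokines lie at 1.23 or below, and Lifr lies at 1.84 in young and at 18.5 in old MSCs.

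Of 8 other ligands of the family, 4 were tested, and 3 were higher and 1 lower in young than in old MSCs (median 0.46, all genes -0.02), where 85.7% of all genes were called (41.6% higher and 44.1% lower). In rejuvenated old against old MSCs 1 was higher and 1 lower (median 0.03, all genes 0.01), beside 21.0% and 20.6% of all genes. Clcf1, the gene of cardiotrophin-like cytokine, was higher in young (0.56, adjusted p = 1.72e-09) and lower in rejuvenated old MSCs than in old ones (-0.15, adjusted p = 0.0314), a call that was lost without old replicate 4, 5 or 6 or rejuvenated old replicate 2 or 5. Ctf1, the gene of cardiotrophin-1, lay at 354 to 393 in young, 63.2 to 84.9 in old and 68.9 to 83.4 in rejuvenated old MSCs (2.29 for young against old, adjusted p = 7.85e-18). Ebi3, a subunit of interleukin-27 and interleukin-35, had at most 2 reads in any young library and 8.62 to 22.7 normalized counts in old MSCs (adjusted p = 3.27e-09).

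Of 6 listed genes of further receptors and of proteases that shed the interleukin-6 receptor, 4 were tested, and 2 were higher and 2 lower in young than in old MSCs (median -0.43, background 41.6% and 44.1%). In rejuvenated old MSCs 1 was higher and 2 were lower than in old MSCs (median -0.13, all genes 0.01, background 21.0% and 20.6%). Adam10, a shedding protease, lay at 1042 to 1376 normalized counts in young, 886 to 1101 in old and 366 to 703 in rejuvenated old MSCs, and fell with co-culture (-0.85, adjusted p = 1.57e-06). Its difference of 0.26 between young and old MSCs (adjusted p = 0.0314) was lost when any of 5 single libraries was left out (young replicate 4 or 6, old replicate 1, 4 or 6). Adam17, the other sheddase, was lower in young (-1.11, adjusted p = 9.04e-18) and lower in rejuvenated old MSCs than in old ones (-0.20, adjusted p = 0.000184). Cntfr, the receptor of ciliary neurotrophic factor, was lower in young than in old MSCs (-1.89, adjusted p = 2.2e-08), and Il27ra, the receptor of interleukin-27, was higher in young (1.00, adjusted p = 3.69e-08) and in rejuvenated old MSCs (0.42, adjusted p = 0.00647).

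Among 14 tested kinases, other STATs and adaptors, 2 were higher and 11 lower in young than in old MSCs (median -0.68, all genes -0.02), where 41.6% of all genes were higher and 44.1% lower. In rejuvenated old against old MSCs 3 were higher and 5 lower (median -0.05), where 21.0% of all genes were higher and 20.6% lower. Jak1, the kinase most tied to gp130, lay at 4962 to 5413 normalized counts in young, 9552 to 10246 in old and 11120 to 12044 in rejuvenated old MSCs, without overlap. It differed from old MSCs by -0.93 in young (adjusted p = 8.15e-19) and 0.24 in rejuvenated old MSCs (adjusted p = 4.8e-07). Jak2 had the same order, at 1086 to 1287, 3200 to 3673 and 4005 to 4273 (-1.54, adjusted p = 2.81e-20, and 0.26, adjusted p = 1.34e-05). Jak3, a kinase of blood cells, was lower in young than in old MSCs by a log2 fold change of -1.38 (adjusted p = 2.79e-13). Stat3 and Jak1 thus differed in opposite directions in both comparisons with old MSCs.

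Of 16 negative regulators other than Socs3, 5 were higher and 9 lower in young than in old MSCs (median -0.21, background 41.6% and 44.1%), and 2 were higher and 5 lower in rejuvenated old MSCs than in old ones (median -0.11, background 21.0% and 20.6%). Socs2, an inhibitor of growth hormone signals, was higher in young (1.58, adjusted p = 3.72e-21) and rejuvenated old MSCs (0.18, adjusted p = 0.000459). Ptpn1, a phosphatase of Janus kinases, was higher in young (0.71, adjusted p = 2.13e-14) and lower in rejuvenated old MSCs (-0.23, adjusted p = 4.17e-05), and Socs4 was lower in young MSCs (-0.60, adjusted p = 0.000182). Ptprc, a phosphatase that is also a macrophage marker, had 0 reads in young MSCs and 162 to 208 normalized counts in old MSCs.

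Of 28 tested genes that STAT3 is known to induce in various cells, 15 were higher and 10 lower in young than in old MSCs (median 0.54, background 41.6% and 44.1%), and 14 were higher and 2 lower in rejuvenated old MSCs than in old ones (median 0.16, all genes 0.01), beside the backgrounds of 21.0% higher and 20.6% lower. The members that moved furthest between young and old MSCs are not specific to STAT3. Hp, the plasma protein haptoglobin, lay at 33.7 to 58.1 normalized counts in young, 21632 to 23804 in old and 33246 to 46051 in rejuvenated old MSCs, and rose in co-culture by 0.80 (adjusted p = 4.71e-06). Steap4, a metalloreductase, lay at 135 to 217 in young and at most 8.62 in other MSCs, and Fgl2, a secreted fibrinogen-like protein, at 106 to 116 against at most 9.70. Lcn2, an iron-binding acute phase protein, had 238 reads over the young libraries, 3 over the old and 4 over the rejuvenated old libraries. Of these, Steap4, Fgl2 and Lcn2 did not pass the test in co-culture (adjusted p = 0.0624, 0.364 and 0.744). Singled out after their values were seen, Myc, Klf4 and Cebpd, all transcription factors, were higher than in old MSCs both in young (1.57, 0.61 and 0.46) and in rejuvenated old MSCs (1.06, 0.87 and 0.83). Myc lay at 3038 to 3503 normalized counts in young, 980 to 1307 in old and 2027 to 2502 in rejuvenated old MSCs, without overlap. All of these genes also respond to other factors than STAT3.

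**Figure D5:**
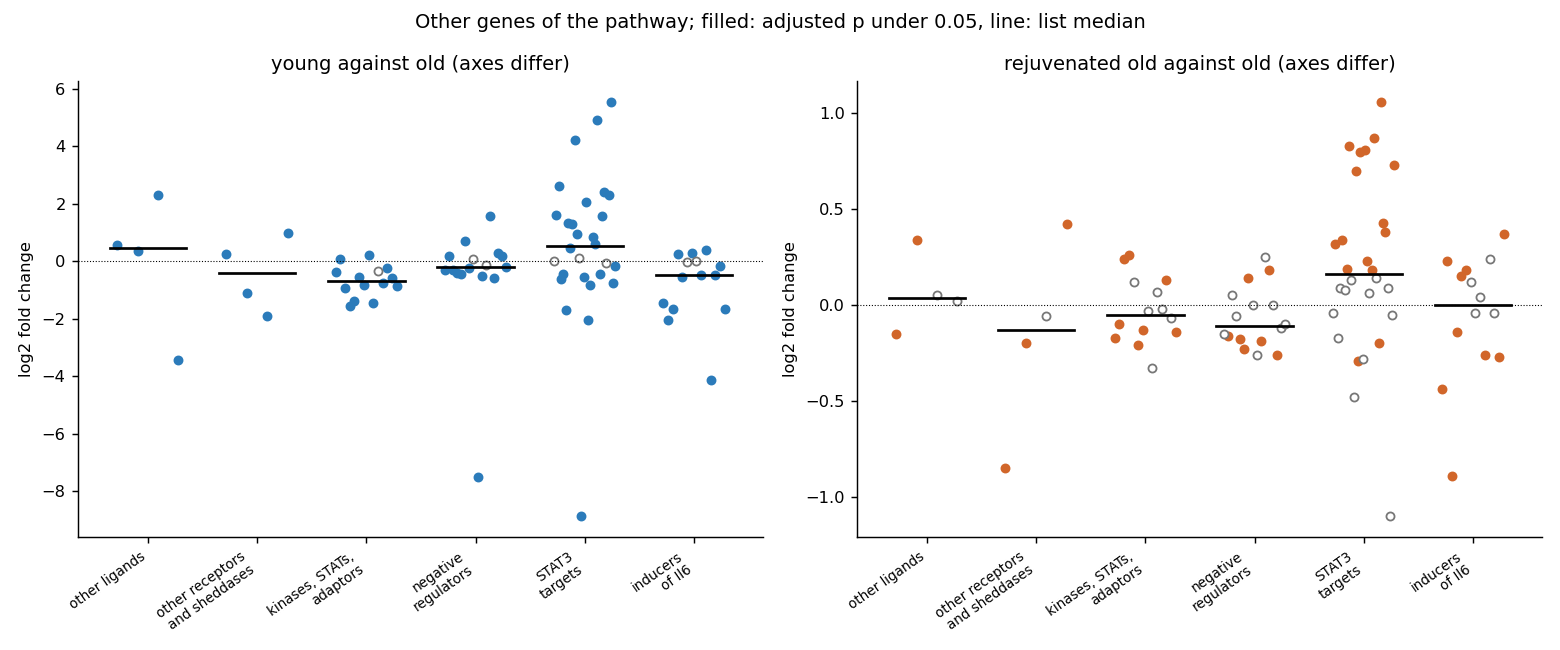
Log2 fold changes of the tested genes of 6 lists in young against old (left) and rejuvenated old against old MSCs (right, on a narrower axis), with filled points at an adjusted p under 0.05 and a line at the median of each list. The medians run from -0.68 to 0.54 on the left and from -0.13 to 0.16 on the right.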

How the data were processed

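RNA from 18 cultures was sequenced with a stranded mRNA kit. Per the labels and the paper's methods, the authors used HISAT2 for alignment to mm10, StringTie and featureCounts for counting, and DESeq2 for normalization. Versions and the strand setting are not given in the sources used here. The deposited values are a signal, the read count of a gene divided by 1 size factor per library. Whole reads were recovered for 100% of the values (tolerance 0.01 of a read), 22936251 to 29559194 per library.

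The deposited signal was tested as log2(value + 1) with limma 3.58.1 (R 4.3.3) over the 14353 genes that averaged 10 or more, with 1 mean per group and a prior variance following the mean. Fold changes are on this scale, which understates low genes, and p-values were adjusted by Benjamini-Hochberg over all genes tested. A call is an adjusted p under 0.05. edgeR 4.0.16 and DESeq2 1.42.0 on the recovered reads were alternatives, as were the pseudocount, filter, scaling, prior variance, fits of 2 groups, threshold, chromosome median, replicate block and leaving out single libraries. The scripts were tested on simulated data. Intervals of read ratios are exact and cover counting error only. Positions came from RefSeq GRCm38.p6, where 25275 of 27179 genes were found, promoters from RefSeq, and exon lengths from GENCODE.

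The members and lists were chosen with earlier results of these data known. All 10 members are named. Of each pathway list, written by hand from general knowledge, the 4 called genes with the largest change were named, with Osm, Clcf1, Jak1 and Jak2, and some genes that these rules name are not reported here. Any other gene was chosen after its values were seen. List medians were unchanged in the 6 pathway lists when genes at 3 reads or fewer throughout a group were set at 3 reads.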

Additional observations from a re-analysis of the deposited data

Results flagged for a closer look

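Within each group of 6, a library was looked at again when its gap to the nearest other library took up more of the range than Dixon's 95% limit allows, which chance alone exceeds in about 1 of 20 groups. This held for 2 values among the 10 genes in 3 groups, of which chance alone would be expected to give some. Il11 stood at 5.39 normalized counts in old replicate 3 and at 1.82 to 3.01 in the other old libraries. The gap came to 0.666 of the range, and all of these values rest on a few reads. Without that library young exceeded old MSCs by 4.17 and rejuvenated old exceeded old MSCs by 0.19 on the log2 scale, the latter still not called (adjusted p = 0.549). Il6st stood at 5661 in rejuvenated old replicate 5 and at 6418 to 6576 in the other rejuvenated old libraries, a gap of 0.828 of the range. Without it the lower level of Il6st in rejuvenated old than in old MSCs was no longer called (-0.07, adjusted p = 0.0710). What set these 2 libraries apart in these genes was not tested.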

How the results depend on the processing

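The counts of members called kept within 1.5 times of their values under all alternatives run. Between rejuvenated old and old MSCs, the values of Il11 and Il11ra1, neither of them called, changed sign when single libraries were left out (Il11 -0.05 to 0.19, with -0.01 without old replicate 1, -0.04 without old replicate 4 and -0.05 without rejuvenated old replicate 3 or 5; Il11ra1 -0.05 to 0.01, the last without rejuvenated old replicate 6). Relative to its chromosome median, Il6st in young against rejuvenated old MSCs turned from -0.25 to 0.05. At an adjusted p under 0.01, Il6 in young against rejuvenated old MSCs and Il6st and Socs3 in rejuvenated old against old MSCs were no longer called. A pseudocount of 10 lowered Il11 in young against old MSCs to 2.48, and a mean of at least 50 left Il6 and Il11 untested. Scaling libraries to the same total changed the share of calls that were higher in young than in old MSCs from 48.5% to 52.7%. Same-numbered libraries did not deviate together (correlations -0.1517 to 0.0736) and none correlated best with its own number. With the number as a replicate block, 5 members were higher and 4 lower in young, and 4 higher and 4 lower in rejuvenated old MSCs, as without it, and over all genes 5769 in place of 5971 were called between rejuvenated old and old MSCs. For that comparison edgeR called 6213 genes, 5902 of them shared, and DESeq2 6345, 5885 of them shared.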

Other observations

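Of 14 tested genes of signals known to act upstream of Il6, 3 were higher and 9 lower in young than in old MSCs (median -0.47, all genes -0.02), beside 41.6% and 44.1% of all genes. In rejuvenated old against old MSCs 4 were higher and 5 lower (median 0.00), beside 21.0% and 20.6% of all genes. Tnf, an inflammatory cytokine that macrophages make, lay at 0 to 5.06 normalized counts in young, 46.2 to 64.5 in old and 52.2 to 70.8 in rejuvenated old MSCs, where its difference from old MSCs was not called (0.24, adjusted p = 0.555). Il1r1, the receptor of interleukin-1, was lower in young (-2.05, adjusted p = 6.28e-22) and higher in rejuvenated old than in old MSCs (0.23, adjusted p = 0.000131). Il1rn, which blocks that receptor, was lower than in old MSCs in both young (-1.67) and rejuvenated old MSCs (-0.89, adjusted p = 1.92e-11). Zc3h12a, an RNase that degrades Il6 mRNA, was lower in young (-1.66, adjusted p = 8.88e-17) and higher in rejuvenated old MSCs (0.37, adjusted p = 8.74e-05), in which Il6 itself was higher.

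The genes whose pattern over the 18 libraries was most like that of a cytokine are given as a description, since the libraries share their groups. For Il6 they included Birc3 and Ccdc25 (Pearson r = 0.77 for each), and no gene reached 0.9. For Il11, Neurl1a, Serp2 and Psma4 had r = 0.99, and 2894 genes reached 0.9, and for Lif, Pld2, Prss35 and Atxn7l1 had r = 0.98, with 1542 genes at 0.9 or more. Prss35, a secreted serine protease-like protein, averaged 6.29 normalized counts for young, 39.0 for old and 124 for rejuvenated old MSCs.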
